A study of Rattus norvegicus with 2 samples.

Results

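Cytosolic ribosomal protein genes were compared between the basilar artery of ligated rats and that of sham-operated rats. They were taken by name. Every probe set with a single gene symbol of Rpl or Rps and a digit, or Rplp0, Rplp1, Rplp2 or Rpsa, was included, and the S6 kinases (Rps6k), Rps19bp1 and pseudogene symbols were left out. This gave 76 of the 15037 named genes, each read by 1 probe set. The Ligation group was 1 Clariom S rat array of basilar artery RNA pooled from 4 male Sprague-Dawley rats, collected 4 weeks after ligation of both common carotid arteries. The Sham group was 1 array of RNA pooled from 4 male Sprague-Dawley rats whose carotid arteries were exposed and not tied, taken at the same time. The labels give the age of both groups as 13 months and the methods as 1 year. No transgene or drug is reported for these animals apart from the anesthetics medetomidine, midazolam and butorphanol. With 1 array per group there is no replicate, so no SD, p-value or test stands behind any difference, and precision is limited by the number of arrays.

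A ribosome is built of a small and a large subunit, each a scaffold of ribosomal RNA that carries many proteins. Rps genes code for the proteins of the small subunit, which reads the mRNA, and Rpl genes for those of the large subunit, which joins amino acids and releases the new chain through an exit tunnel. Cells make these proteins in nearly equal amounts, and the mRNAs of nearly all of them begin with a short run of pyrimidines, the terminal oligopyrimidine (TOP) tract, through which the kinase mTOR sets how strongly they are translated. An array reads the amount of mRNA and not its translation. In the mouse and human genome, as in the rat, most ribosomal protein genes have many processed pseudogenes, and a short probe may read several near-identical copies.

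Ribosomal protein mRNA was higher in the ligation array for 67 of the 76 genes, against 48.7% of all named genes, and for 55 to 62 of them under 3 other scalings of the arrays. The median difference was 0.44 on the log2 scale, ligation minus sham, which is 1.36-fold, with quartiles of 0.12 and 0.70. The median over all named genes was -0.01. The size of the difference was modest for nearly all members. Over 2-fold higher were 2 of the 76, Rpl35a and Rps4y2, and Rps4y2 was within the background of both arrays, against 4.04% of all named genes. Over 1.5-fold higher were 27 of the 76, against 12.4% of all named genes. Under 0.5-fold were 0 of the 76, against 2.97% of all named genes, and over 1.5-fold lower was 1, Rpl39l1, which was also within the background, against 10.8% of all named genes. The members were therefore set apart from the whole by how many lay above 0 and over 1.5-fold higher, and not by folds over 2. In RNA from a whole vessel, fewer cells of a type and less RNA per cell cannot be told apart, and markers of several cell types, given after the members, also differed between these arrays. Their part in the result was not tested.

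**Figure D1:**
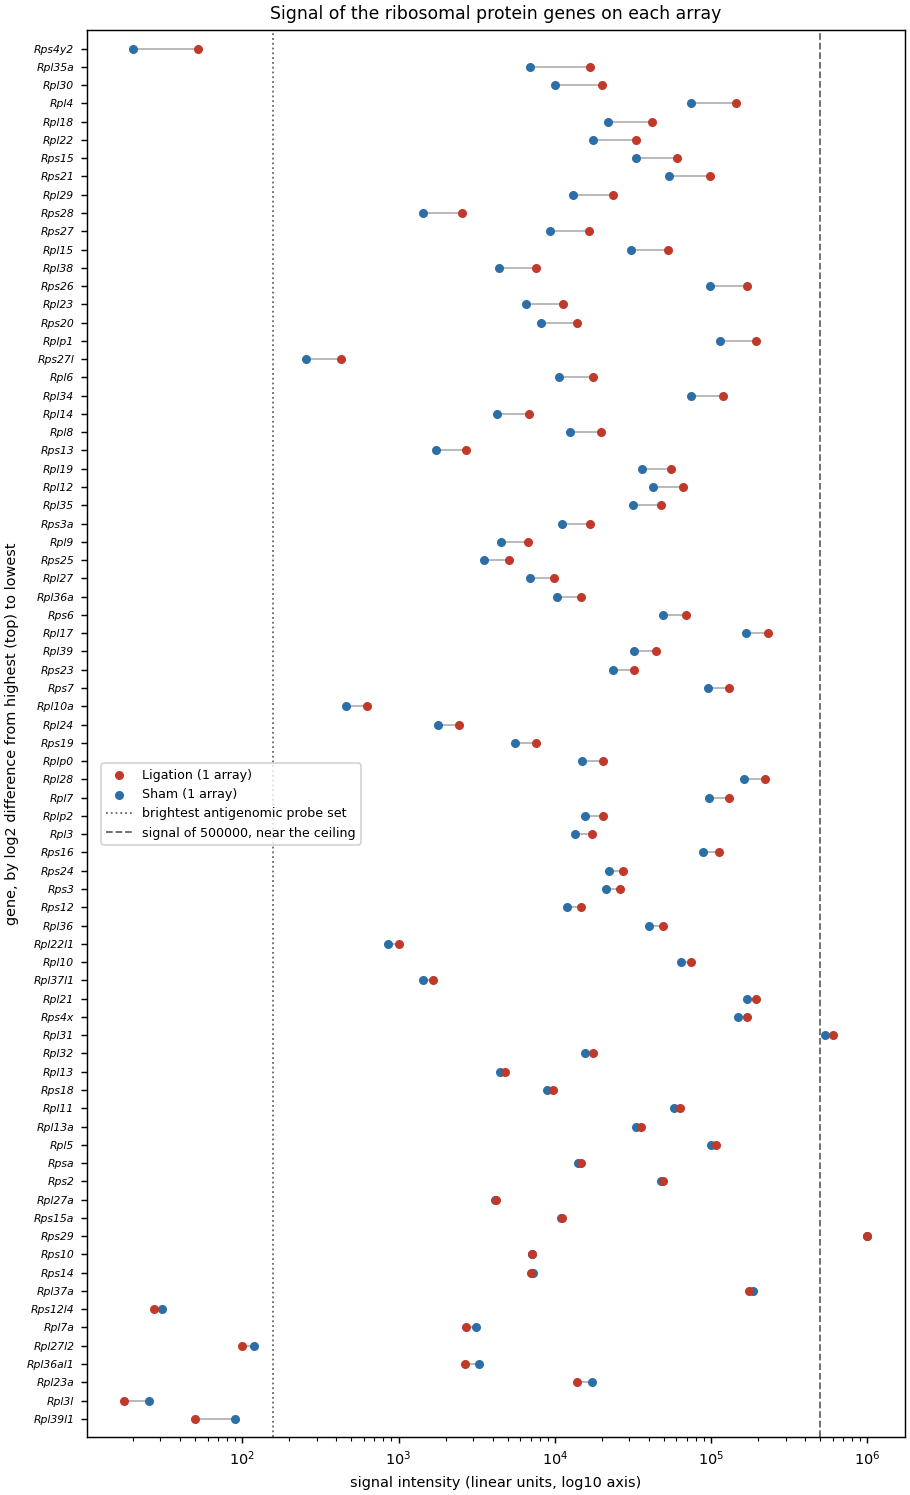
Signal intensity (linear units on a log10 axis) of each of the 76 ribosomal protein genes in the ligation array (red) and the sham array (blue), ordered by log2 difference. The dotted line marks the brightest antigenomic probe set and the dashed line a signal of 500000. Red lies to the right of blue for 67 genes.

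The background of an array was read from 23 antigenomic probe sets, which match no rat sequence. The brightest of them stood at 157 in Ligation and 151 in Sham. Within it on both arrays were 5 members, and 71 were above it on at least 1 array. Of these 71, 66 were higher in the ligation array with a median difference of 0.45, and 26 were over 1.5-fold higher. Among the 7680 named genes above background that code for no ribosomal protein of these symbols, 56.1% were higher in the ligation array and 17.6% were over 1.5-fold higher, and their median was 0.07.

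Plain symbols, such as Rpl4 or Rps6, belonged to 67 of the members, and 63 of these were higher in the ligation array, with a median difference of 0.45. The other 9 have symbols of paralogs or copies (Rpl3l, Rpl22l1, Rpl27l2, Rpl36al1, Rpl37l1, Rpl39l1, Rps12l4, Rps27l and Rps4y2). Of those, 4 were higher in the ligation array, and their median was -0.18. Both subunits gave nearly the same value. The 42 plain-symbol genes of the large subunit had a median of 0.47, 39 of them higher in the ligation array, and the 25 of the small subunit a median of 0.44, 24 of them higher.

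The largest difference above background was that of Rpl35a, a large-subunit protein mutated in some families with Diamond-Blackfan anemia. Its signal was 16829 in Ligation and 6954 in Sham, a difference of 1.28 or 2.42-fold. It was the only member above background to pass 2-fold. Its probe set identifier carries no chromosome, and RefSeq lists 15 further loci named after it, so which copies the probes read was not tested. Rpl30, a small RNA-binding protein of the large subunit, followed with 20055 in Ligation and 10082 in Sham (0.99). Rpl4, which lines part of the exit tunnel, had 143624 in Ligation and 74754 in Sham (0.94). Rpl18 had 41611 in Ligation and 21747 in Sham, the same difference of 0.94. In none of these was the sham array near background or the ligation array near the ceiling.

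Rpl22, a large-subunit protein that mice can survive without, stood at 32943 in Ligation and 17489 in Sham (0.91). Rps15, which sits on the head of the small subunit near the decoding site, stood at 60561 in Ligation and 32974 in Sham (0.88). These were followed by Rps21 with 97691 and 53448 (0.87), also ligation before sham. Among the dimmer members, Rps28 had 2534 in Ligation and 1425 in Sham (0.83), so a difference of this size was found from low to high signals. Rpl29, known also as a heparin-binding protein, had 23737 in Ligation and 13027 in Sham (0.87). Rps27, a zinc finger protein of the small subunit, had 16568 in Ligation and 9334 in Sham (0.83).

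Lower in the ligation array and above background were 5 members, and all differed by less than 1.5-fold. Rpl23a, which lies at the mouth of the exit tunnel where the signal recognition particle docks, had 13830 in Ligation and 17252 in Sham, a difference of -0.32. Rpl36al1 had 2681 in Ligation and 3257 in Sham (-0.28). Its probe set identifier carries chromosome 18, while RefSeq places the gene of this symbol on chromosome 6, so which copy the probes read is not settled. Rpl7a, a large-subunit protein, had 2695 in Ligation and 3130 in Sham (-0.22). Rpl37a had 174206 in Ligation and 185503 in Sham (-0.09). Rps14, whose loss of 1 copy underlies the anemia of the human 5q- syndrome, had 7004 in Ligation and 7231 in Sham (-0.05). Rps10 was level at 7111 in Ligation and 7100 in Sham (0.00), and came next in the order.

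TOP tracts were looked for in the promoter table of RefSeq for GRCr8, which holds 250 bases before and 50 bases after each annotated start. It matched 65 of the 76 members. A tract was counted where a C followed by at least 5 pyrimidines began within 10 bases of the annotated start on the transcribed strand. Of the 65 promoters 42 held one, 64.6%, against 17.7% of all 27457 promoters searched. Only the first entry of each gene among the 33469 entries was searched, so a tract in another entry was not counted. Tracts were 6 to 21 bases long, with a median of 10. The following stretches show 30 bases before the annotated start and the first 20 after it, with the tract in capitals, for the 5 members with a tract that had the highest differences.
Rpl35a, chr11:81235002-81235051, minus strand: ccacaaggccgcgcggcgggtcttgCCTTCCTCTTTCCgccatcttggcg
Rpl4, chr8:73566447-73566496, plus strand: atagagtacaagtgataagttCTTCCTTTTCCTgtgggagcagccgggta
Rpl22, chr5:168117931-168117980, plus strand: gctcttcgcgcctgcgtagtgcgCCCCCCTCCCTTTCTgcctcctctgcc
Rps15, chr7:10068096-10068145, minus strand: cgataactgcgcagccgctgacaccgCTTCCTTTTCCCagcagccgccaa
Rps21, chr3:187724008-187724057, plus strand: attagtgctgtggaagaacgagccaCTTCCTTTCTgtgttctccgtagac

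Members with a tract and low differences above background are shown for contrast. Rps14 (-0.05) also held a tract and belongs among the lowest, but its stretch is not shown.
Rpl27a, chr1:172974543-172974592, plus strand: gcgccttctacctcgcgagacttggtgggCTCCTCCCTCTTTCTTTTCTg
Rps15a, chr1:181860265-181860314, minus strand: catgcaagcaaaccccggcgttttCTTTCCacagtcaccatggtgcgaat
Rps10, chr20:5700725-5700774, minus strand: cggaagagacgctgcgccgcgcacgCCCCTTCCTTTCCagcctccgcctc
Rpl37a, chr9:81748061-81748110, plus strand: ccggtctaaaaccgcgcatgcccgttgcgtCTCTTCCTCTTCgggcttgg
Rpl36al1, chr6:93392239-93392288, minus strand: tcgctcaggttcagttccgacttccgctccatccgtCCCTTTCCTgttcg
Rpl27a had 4231 in Ligation and 4136 in Sham (0.03), and Rps15a had 11082 in Ligation and 10930 in Sham (0.02). Together with Rps10 their signs turned under other scalings. Tracts of 12 and 13 bases stood at both ends of the order of differences, in Rpl35a and Rpl4 and in Rps10 and Rpl37a.

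The highest and the lowest member above background with no such tract were Rpl18 and Rpl7a. In both, a pyrimidine run long enough to count began too far upstream, a short one in Rpl18 and a long one in Rpl7a. Whether a member counts therefore depends on where the annotation puts the start.
Rpl18, chr1:105325240-105325289, plus strand: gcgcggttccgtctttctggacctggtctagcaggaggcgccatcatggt
Rpl7a, chr3:30637106-30637155, plus strand: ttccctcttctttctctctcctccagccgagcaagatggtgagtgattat
Among members above background the 40 with a tract had a median difference of 0.52, and 37 of them were higher in the ligation array. The 20 without a counted tract had a median of 0.35, and 19 of them were higher. The range was -0.28 to 1.28 with a tract and -0.22 to 0.94 without one, so the groups overlapped almost wholly.

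Other motifs were searched on both strands of the whole window, each counted on its own, although CTTCCG can overlap the end of a tract. The ETS factor core CTTCCG was found in 53.8% of the members' promoters, against 17.4% of all promoters. The palindrome-like TCGCGAGA was found in 16.9% of the members' promoters, against 0.943% of all promoters, and the GC box GGGCGG in 55.4%, against 34.9%. AAGATGGC, the core bound by YY1, was in 5 of the 65 members' promoters, 7.69%, against 3.44% of all, and TATAA was in 27.7%, against 26.1%. For the tract and the motifs alike, the promoters compared were not matched to the members by signal. A match describes letters in a window and is not a measured binding site. The tract and the motifs were chosen after the members' sequences had been seen.

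Signals above 500000 lie near the ceiling of these arrays, which was 999963 in Ligation and 998298 in Sham and was shared by 10 gene probe sets. Rps29, a small zinc-binding protein of the small subunit, was at that ceiling on both arrays, so its fold is not measured. Rpl31, a protein at the rim of the exit tunnel, was at 604356 in Ligation and 531992 in Sham (0.18), and its sign turned with the trend on signal removed. The next member below the mark was Rpl17 with 231092 in Ligation and 166093 in Sham (0.48).

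Because differences can follow signal, each member was set against the 200 named genes outside the set nearest to it in mean log2 signal. The median difference of these neighbours was 0.00 to 0.13 for the plain-symbol members. Above the median of its neighbours were 61 of the 76 members, above their upper quartile were 33, and below their lower quartile were 4 (Rpl23a, and Rpl3l, Rpl39l1 and Rpl27l2, which were within background). The median gap between a member and its neighbours was 0.35. Across the 67 plain-symbol members, the difference had almost no relation to mean log2 signal (Pearson's r = -0.08, Spearman's rho = -0.06, a description across genes that share the same arrays).

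**Figure D2:**
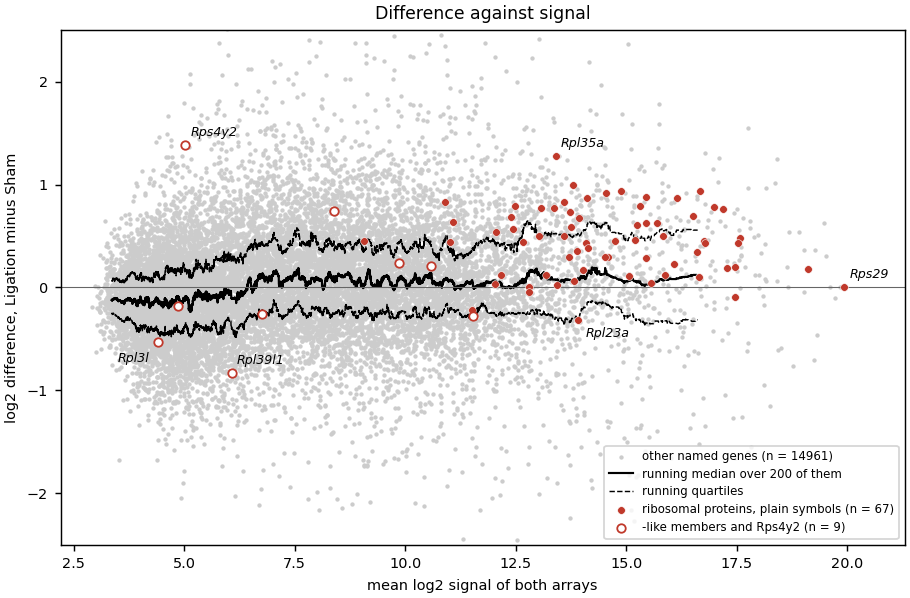
Log2 difference, ligation minus sham, against mean log2 signal of both arrays for the ribosomal protein genes (filled red, 67 plain symbols; open red, the other 9) and 14961 other named genes (grey). Black lines are the running median and quartiles of 200 other genes. Most filled points lie above the running median, and 30 grey points beyond 2.5 in either direction are not drawn.

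Members lay above other genes in each range of signal from the background to 262144. In the range of 4096 to 16384 the 25 members had a median difference of 0.50, against 0.07 for 906 other named genes. In the range of 16384 to 65536 all 20 members were higher in the ligation array, with a median of 0.46, while 58.0% of 331 other genes were, with a median of 0.10. From 65536 to 262144, the 15 members had a median of 0.44 and the 113 other genes 0.13. Between the background and 4096, 9 members had a median of 0.44 and 5914 other genes 0.07. Over 262144 there were 2 members, Rps29 and Rpl31, with a median of 0.09, against 0.00 for 33 other genes. Below the background the 5 members had a median of -0.25 and the other genes -0.09, and among these 5 only Rps4y2 was higher in the ligation array.

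RefSeq lists 1139 rat loci with a ribosomal protein symbol of this kind, of which 839 are pseudogenes. Every plain-symbol member had at least 1 further locus named after it, with a median of 15 and up to 36 for Rps2. Which of these copies a probe set reads was not tested, so each value belongs to a gene or its near-identical copies. Across the 67 genes the difference and the number of such loci had r = -0.33 and rho = -0.30, again a description. The 40 genes with up to 15 such loci had a median difference of 0.52 and the 27 with more had 0.43. Probe set identifiers that carry no chromosome belonged to 15 members, whose median of 0.45 was close to the 0.44 of the other 61.

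The 5S particle joins 5S ribosomal RNA with Rpl5 and Rpl11, and when ribosome assembly fails these proteins bind Mdm2 and stabilise p53. Both were among the smallest differences. Rpl5 had 106900 in Ligation and 99771 in Sham (0.10), and Rpl11 had 62791 in Ligation and 57838 in Sham (0.12). Each lost its positive sign when the trend of difference on signal was removed, and Rpl5 also under quantile normalization. Mdm2 itself had 847 in Ligation and 865 in Sham (-0.03), and Cdkn1a, the p53 target that codes for p21, had 3353 in Ligation and 4326 in Sham (-0.37). Myc, which drives ribosome production, had 202 in Ligation and 165 in Sham (0.29), close to background. Its partner Max had 3393 in Ligation and 3146 in Sham (0.11). The median of the 5 measured genes of this list of 7 was 0.04, and 3 were higher in the ligation array, or 2 under the other scalings.

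The stalk of the large subunit, which recruits the elongation factors, is made of Rplp0, pairs of Rplp1 and Rplp2, and Rpl12 at its base. All 4 were higher in the ligation array, also under every scaling that was tried. Rplp1 had 193162 in Ligation and 114116 in Sham (0.76), and Rpl12 had 65890 in Ligation and 42741 in Sham (0.62). Smaller differences were measured for Rplp0, with 20196 in Ligation and 14927 in Sham (0.44), and for Rplp2, with 20431 in Ligation and 15658 in Sham (0.38). Their median was 0.53.

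Members of the small subunit with a known role of their own had differences from -0.05 for Rps14 to 0.83 for Rps28. Rps26, which contacts the mRNA on its way out of the ribosome, had 170772 in Ligation and 99035 in Sham (0.79). Rps6, the protein that S6 kinase phosphorylates, had 69099 in Ligation and 48978 in Sham (0.50). Rps19, the gene most often mutated in Diamond-Blackfan anemia, had 7562 in Ligation and 5566 in Sham (0.44). These values lay near or above the median of the whole set.

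Rps24 had 27149 in Ligation and 22140 in Sham (0.29), and Rps3, at the mRNA entry site, had 26200 in Ligation and 21369 in Sham (0.29). Rps4x, the X-linked form of Rps4, had 170192 in Ligation and 149627 in Sham (0.19). Rpsa, also known as the laminin receptor, had 14809 in Ligation and 14151 in Sham (0.07), and Rps2 had 49106 in Ligation and 47494 in Sham (0.05). The sign of Rps4x, Rpsa and Rps2 turned under at least 1 of the other scalings.

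In the large subunit, Rpl38, which mice need for the normal pattern of the axial skeleton, had 7578 in Ligation and 4375 in Sham (0.79). Rpl23, another protein that binds Mdm2, had 11225 in Ligation and 6563 in Sham (0.77). Rpl8, close to the site where peptide bonds form, had 19837 in Ligation and 12426 in Sham (0.67). Each of these was more than 1.5-fold higher in Ligation. Rpl39, which lines the exit tunnel, had 44435 in Ligation and 32266 in Sham (0.46). Rpl10a had 629 in Ligation and 460 in Sham (0.45), and Rpl24, which forms a bridge between the subunits, had 2427 in Ligation and 1783 in Sham (0.44). These differed by about as much as the median member. Rpl3, next to the peptidyl transferase center, had 17196 in Ligation and 13438 in Sham (0.36). Rpl10, among the last proteins to join the subunit, had 74472 in Ligation and 63775 in Sham (0.22). Rpl13a, which in human cells also leaves the ribosome to silence inflammatory mRNAs, had 35698 in Ligation and 32962 in Sham (0.12), and its sign turned when the trend on signal was removed.

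Paralogs differed among themselves. Rps27l, a p53 target and the paralog of Rps27, had 431 in Ligation and 257 in Sham (0.75), close to the 0.83 of Rps27. Rpl22l1 had 1007 in Ligation and 855 in Sham, a difference of 0.24 beside 0.91 for its parent Rpl22. Rpl3l, which is made in heart and skeletal muscle, was within background at 17.5 in Ligation and 25.4 in Sham. Rps4y2 was within background at 52.4 in Ligation and 20.03 in Sham, and the same held for Rpl39l1 at 50.2 and 89.6, Rps12l4 at 27.2 and 30.7, and Rpl27l2 at 99.3 and 118, ligation before sham in each pair. The size of a difference is not settled for these 5, although Rps4y2 and Rpl39l1 passed 2-fold and 1.5-fold in the counts over all members.

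Other lists of the translation machinery did not show the same median. The 66 mitochondrial ribosomal proteins, which build the separate ribosome of the mitochondrion, had a median difference of 0.07, and 39 were higher in the ligation array, or 34 under the other scalings. Their highest values were those of Mrps27, with 281 in Ligation and 93.0 in Sham (1.60), and Mrpl32, with 188 in Ligation and 88.6 in Sham (1.09). The sham signals of both were within background, so the size of these differences is not settled. At the other end, Mrpl18 had 247 in Ligation and 438 in Sham (-0.82), and Mrps15 had 3338 in Ligation and 5262 in Sham (-0.66). Over 2-fold higher were 3 of the 66, 4.55%, close to the 4.04% of all named genes. The third, Mrps25, was above background on both arrays, with 734 in Ligation and 365 in Sham (1.01).

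Ribosome biogenesis, the making of ribosomal RNA and the assembly of the subunits in the nucleolus, had a median of 0.09 over 40 measured genes of 45, with 25 higher in the ligation array, or 20 to 21 under the other scalings. Nob1, the nuclease that finishes the small subunit's RNA, had 1666 in Ligation and 807 in Sham (1.05), and Polr1c, a subunit of RNA polymerases I and III, had 591 in Ligation and 321 in Sham (0.88). Nop58, a core protein of the box C/D particles that methylate ribosomal RNA, had 1034 in Ligation and 2260 in Sham (-1.13). Rrs1, an assembly factor of the large subunit, was within background at 37.7 in Ligation and 86.7 in Sham. The median of this list was at 0.00 under quantile normalization and at -0.01 with the trend on signal removed.

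Initiation factors, which bring the ribosome to the start codon, had a median of -0.03 over 29 measured genes of 37, with 13 higher in the ligation array, or 8 to 9 under the other scalings. Eif2s3 had 15328 in Ligation and 9438 in Sham (0.70) and Eif3m had 13876 in Ligation and 8850 in Sham (0.65). Eif5b, which helps the subunits to join, had 5382 in Ligation and 9135 in Sham (-0.76), and Eif2b5, part of the exchange factor of eIF2, had 930 in Ligation and 1282 in Sham (-0.46). None of the list passed 2-fold in either direction.

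Among 11 genes of elongation and termination the median was 0.07, with 9 higher in the ligation array (4 to 7 under the other scalings), and it was -0.02 and -0.04 under quantile normalization and with the trend removed. Eef2k, the kinase that halts elongation by phosphorylating eEF2, had 2416 in Ligation and 8907 in Sham, a difference of -1.88 and the only value of this list past 2-fold. Eef1e1 had 438 in Ligation and 267 in Sham (0.72), and the release factor Etf1 had 4849 in Ligation and 3418 in Sham (0.50). Eef1a1 was near the ceiling. Eef1a2, the form of muscle and neurons, was within background at 58.1 in Ligation and 66.2 in Sham.

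Genes other than ribosomal proteins whose mRNAs begin with a TOP tract had a median of 0.10 over 18 measured of 20, and 15 were higher in the ligation array, which became 9 with the trend on signal removed. Eef1a1 and Vim were near the ceiling on both arrays, so their differences of 0.00 are not measured folds, and without them the median of the other 16 was 0.19, with 14 higher. Tpt1, one of the best known of them, had 79813 in Ligation and 41858 in Sham (0.93), and Btf3, a subunit of the complex that meets the new chain at the exit tunnel, had 51718 in Ligation and 27966 in Sham (0.89). Both differences lay within the range of the 10 highest ribosomal proteins, while 6 of the 16 lay within 0.1 of 0. The list holds 2 ribosomal proteins whose symbols the name rule does not take. Fau, which codes for small-subunit protein eS30, had 17717 in Ligation and 16709 in Sham (0.08), and Rack1, the scaffold protein on the head of the small subunit, had 32814 in Ligation and 35182 in Sham (-0.10). Eif3h had 29285 in Ligation and 30338 in Sham (-0.05).

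The mTOR and S6 kinase list, which holds the pathway that acts on TOP mRNAs, had a median of 0.00 over 26 measured genes of 31, with 13 higher in the ligation array. Lamtor1, which anchors mTOR complex 1 to the lysosome, had 492 in Ligation and 202 in Sham (1.29). Pdcd4, an inhibitor of initiation that S6 kinase marks for breakdown, had 46200 in Ligation and 27783 in Sham (0.73). Mtor itself had 406 in Ligation and 584 in Sham (-0.52), and Rragd had 132 in Ligation and 227 in Sham (-0.78), its ligation signal being within background.

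**Figure D3:**
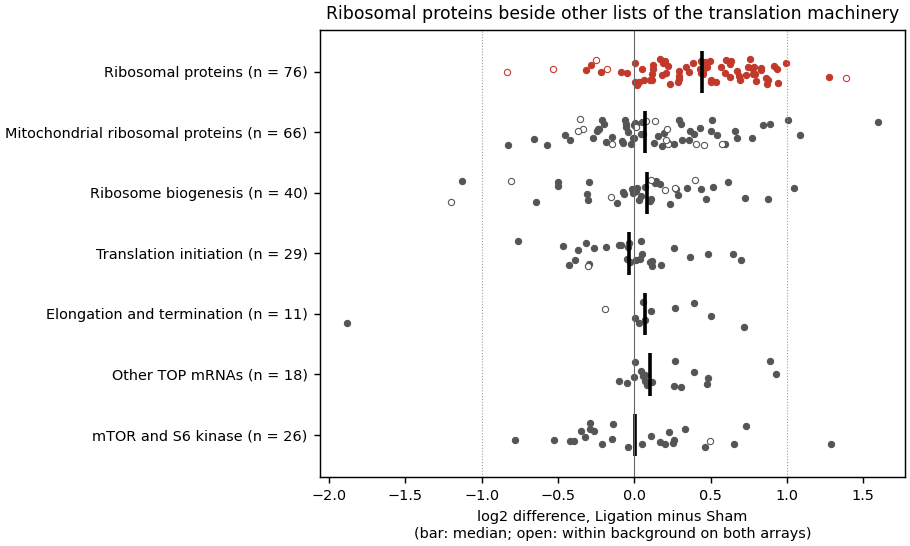
Log2 difference, ligation minus sham, of every measured gene of the ribosomal proteins (red) and of 6 other lists of the translation machinery (grey), with the median of each as a black bar. Open points are within background on both arrays, and dotted lines mark 2-fold. The median of the ribosomal proteins is 0.44 and those of the other lists lie between -0.03 and 0.10, or 0.19 for the other TOP mRNAs without Eef1a1 and Vim, which were near the ceiling.

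Markers of the cell types that the vessel and its surroundings could hold were read on the same arrays. The labelled tissue was checked with smooth muscle markers, all 12 of which were above background on both arrays, and all 12 were lower in the ligation array. They summed to a signal of 2630830 in Ligation and 4010510 in Sham, with a median difference of -0.90, from Tagln at 832768 in Ligation and 895395 in Sham (-0.10, near the ceiling) and Actg2 at 70522 in Ligation and 81855 in Sham (-0.21) to Smtn at 16773 in Ligation and 81005 in Sham (-2.27) and Myocd at 1011 in Ligation and 3852 in Sham (-1.93). Without Acta2, Myl9 and Tagln, which were above 500000, the median of the other 9 was -1.35.

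Endothelial markers, which line the lumen, were higher in the ligation array in 10 of 10 cases, with a median of 1.34 and a summed signal of 173110 in Ligation and 95115 in Sham. They ran from Kdr (0.14) and Esam (0.54) to Flt1 (2.25) and Vwf, with 8907 in Ligation and 1301 in Sham (2.78). Cdh5 made up 57.3% of the summed signal in Ligation and 70.2% in Sham. Fibroblast and meningeal markers were higher in 14 of 14 (11 to 12 under the other scalings), with a median of 0.66. They summed to 1249560 in Ligation and 882427 in Sham, and ran from Foxc1 (0.02) and Pi16 (0.05) to Aldh1a2 (1.09) and Fbln1 (1.15). Dcn, above 500000 on both arrays, made up 57.1% of this sum in Ligation and 62.9% in Sham. Without Dcn the median was 0.66. Macrophage markers were higher in 14 of 14, with a median of 0.61. They summed to 705612 in Ligation and 475733 in Sham, and ran from Cx3cr1 (0.23) and Aif1 (0.31) to Mrc1 (1.59) and Tyrobp (1.77). Lyz2, above 500000 in Ligation, made up 83.6% of this sum in Ligation and 85.2% in Sham. Without Lyz2 the median was 0.62.

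Markers of brain and of central or peripheral myelin were also present on both arrays. Astrocyte markers were higher in 9 of 9, with a median of 1.42 and a sum of 328339 in Ligation and 205796 in Sham, of which Gjb6 made up 71.3% in Ligation and 77.4% in Sham, from Gja1 (0.31) and Aldh1l1 (within background) to Gfap (3.96) and Aqp4, with 6060 in Ligation and 350 in Sham (4.12). Myelin markers were higher in 8 of 10, with a median of 1.14 and a sum of 225995 in Ligation and 104490 in Sham. Pmp22, a protein of peripheral myelin, alone made up 83.9% of this sum in Ligation and 81.9% in Sham. The largest differences were those of Mbp, with 7294 in Ligation and 537 in Sham (3.76), and Mobp (3.57). Mog, Olig1, Olig2 and Sox10 were within background. Neuron markers had a median of 0.12, a sum of 5694 in Ligation and 5006 in Sham, and values from -0.17 for Rbfox3 and 0.00 for Nefl, within background, to 0.60 for Nefm and 0.67 for Stmn2. Of the T cell markers only Cd4 (1.42) and Cd2 (0.11) were above background, and Cd3d, Cd3e, Cd3g, Cd8a and Lck were not. The list summed to 20639 in Ligation and 7919 in Sham, of which Cd4 alone made up 98.2% in Ligation and 95.9% in Sham. Of the erythroid markers only Hbb was above background, with 12153 in Ligation and 17102 in Sham (-0.49), while Alas2, Epb42 and Slc4a1 were not, and the list summed to 12239 in Ligation and 17189 in Sham. No listed marker was at 0 on either array.

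**Figure D4:**
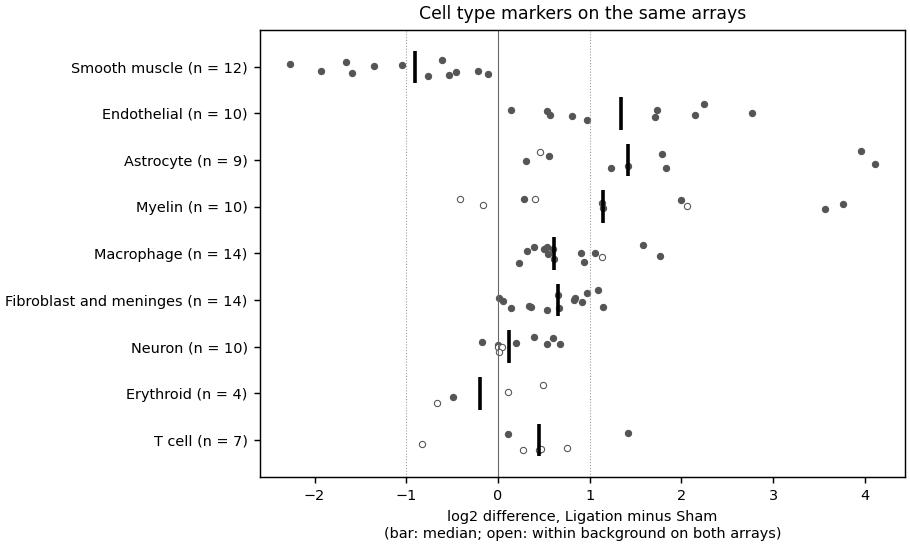
Log2 difference, ligation minus sham, of every measured marker of 9 cell types on the same arrays, with the median of each list as a black bar. Open points are within background on both arrays, and dotted lines mark 2-fold. Smooth muscle markers lie below 0 with a median of -0.90, and endothelial, astrocyte and myelin markers have medians of 1.34, 1.42 and 1.14.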

How the data were processed

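RNA of the basilar artery was labeled from 50 ng per pool and read on 2 Clariom S rat arrays. The authors deposited linear signal intensity per probe set, made according to the submitters' processing notes with RMA in Affymetrix Expression Console. RMA as a rule normalizes arrays to a shared distribution, but the medians of the deposited gene signals differ (110.4 in Ligation and 106.4 in Sham). The methods also name the Microarray Data Analysis Tool, version 3.2. Versions of the RMA software and the genome build are not given in the sources used here. All 15049 named probe sets among 23188 for genes were named through the platform annotation, with symbols updated from RefSeq for GRCr8, and the 8139 others are unnamed here. Log2 of the deposited intensity was compared as ligation minus sham with no further scaling, at over 2-fold and under 0.5-fold as in the study. A member's neighbours were the 200 named non-members nearest in mean log2 signal.

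Members and lists were chosen with earlier results of these data known. By rule, values are given for the 10 highest and 10 lowest members, for those with listed roles, for paralogs and their parents, for those above 500000 or within background, and for the 2 highest and 2 lowest of each other list. Some genes of the family are not reported here. The third mitochondrial gene over 2-fold and the list genes left out near the ceiling are named beyond the rule. Several genes that carry much of a marker sum are also named beyond it. All of these were chosen after their values were seen. The split by plain symbols, the split by identifier, the TOP tract and the motifs were chosen after values were seen, and so were Rpl17, Rpl27a and Rps15a as examples. Alternatives were other scalings, removal of the trend on signal by lowess (fraction 0.3), 64 added before the log, other fold limits, other numbers of neighbours and subsets of members. With no replicates, a median was taken as moved beyond 0.1 on the log2 scale and a count beyond 1.5 times. The steps were tested on simulated data. Scripts ran under Python 3.11.15 with pandas 2.3.3 and numpy 2.4.6, lowess came from statsmodels 0.14.6, and plots from matplotlib 3.10.9.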

Additional observations from a re-analysis of the deposited data

How the results depend on the processing

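No paired analysis was possible because each group is 1 array. The median difference of the ribosomal proteins stayed positive under 11 alternatives, between 0.28 and 0.45. It was 0.31 under quantile normalization and 0.28 with the trend on signal removed, and the other 9 alternatives left it within 0.1 of the main value. Among those 9, taking the brightest probe set of each gene could not change the median, since each member has 1 probe set. The median gap to genes of similar signal was 0.33 to 0.36 under 13 alternatives. Centring the arrays shifts members and neighbours alike, so that alternative could not change the gap. The count of members higher in the ligation array was 62 with arrays centred on their medians, 59 under quantile normalization and 55 with the trend removed. The sign turned for 5, 6 and 12 single members under those scalings, all of them with main differences of 0.19 or less, among them Rpl5, Rpl11, Rpl13a, Rpl27a, Rpl31, Rps2, Rps10, Rps15a, Rps18, Rps29, Rps4x and Rpsa. The count over 2-fold was 1 with 64 added before the log, with members within background, listed paralogs or identifiers without a chromosome left out, and for the plain symbols alone, since it rests on Rpl35a and Rps4y2. At 1.5-fold it was 27 higher and 1 lower. The median of all gene probe sets was 0.05 higher in the ligation array. The array ceiling bounds Rps29, and the background bounds 5 members.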
